A study of Arabidopsis thaliana with 12 samples.

Results

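Alpha-expansins are cell wall proteins that let plant walls yield to turgor, and 8 of their genes were measured here in whole Arabidopsis seedlings of 2 genotypes, untreated or harvested after gamma irradiation. The set was defined by locus: 10 alpha-expansin loci were listed, 8 of them had a probe set among the 16947 loci of the values, and the other 2 were not analysed here. The 8 are EXPA4 (AT2G39700), EXPA5 (AT3G29030), EXPA6 (AT2G28950), EXPA7 (AT1G12560), EXPA8 (AT2G40610), EXPA11 (AT1G20190), EXPA15 (AT2G03090) and EXPA18 (AT1G62980). RefSeq gives all 8 loci the same expansin names. The family was picked because EXPA8 differed between the genotypes, so differences between gmi1-1 and wild type are given below as descriptions, with no test.

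Expansins loosen the wall without cutting its polymers. They act at acid pH, which plasma membrane proton pumps set up, and they weaken the contacts between cellulose and the other wall polysaccharides so that cells can enlarge. The alpha family (EXPA) is the largest in Arabidopsis, beside beta-expansins and expansin-like proteins. Its members are expressed in different growing tissues, and EXPA7 and EXPA18 are known for the hair-forming cells of the root epidermis, where they serve root hair initiation and elongation. Many expansin genes are known to respond to the growth hormones auxin, gibberellin and brassinosteroid.

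The 12 arrays came from 5-day-old seedlings of the Col-0 ecotype, with 3 biological replicates, as the labels call them, for each of 4 groups: wild type and gmi1-1, each either untreated or irradiated. The irradiated groups received 100 Gy of gamma rays and were harvested 1.5 h afterwards. The line gmi1-1 is a SALK insertion line of GMI1 (AT5G24280), which depends on the DNA damage kinase ATM for its induction, and no further mutant line was used. The arrays were run to learn if GMI1 helps to regulate the transcriptional response to irradiation. Nothing in the labels says whether the untreated plates were handled like the irradiated ones. Whole seedlings were used, so a lower value can come from fewer cells that express a gene or from less of its RNA per cell, and these cannot be told apart.

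GMI1 stood between 9.97 and 10.92 (log2) on the irradiated wild type arrays, between 1.87 and 2.53 on the untreated ones, and at 1.24 to 1.66 on all 6 gmi1-1 arrays, as the genotype labels say. BRCA1 (AT4G21070), a repair gene induced by irradiation, reached 10.54 in a library labelled untreated, gmi1-1 replicate 1, against 2.70 and 2.90 in the other untreated gmi1-1 libraries and 10.56 to 12.08 on the 6 irradiated arrays. That library therefore goes against its treatment label. Results are given with all 12 arrays, and many of those where gmi1-1 enters also without both gmi1-1 libraries numbered 1, untreated and irradiated. The irradiated one, with BRCA1 at 10.56, does not go against its label. Values on the gmi1-1 irradiated replicate 3 array were more compressed than elsewhere (interquartile range 4.70, and 5.28 to 5.83 for the remaining arrays). Its 5′ GAPDH control probe set lay 1.30 below the middle one, a difference of -1.30 against -0.47 to -0.17 elsewhere. Markers of green tissue were high on every array, where the mean of 6 of them ran from 13.31 to 14.02. Of 6 root markers, PYK10 was at 13.18 or more throughout, while PLT1 and PLT2, genes of the small root stem cell region, stayed at or under 2.40.

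**Figure D1:**
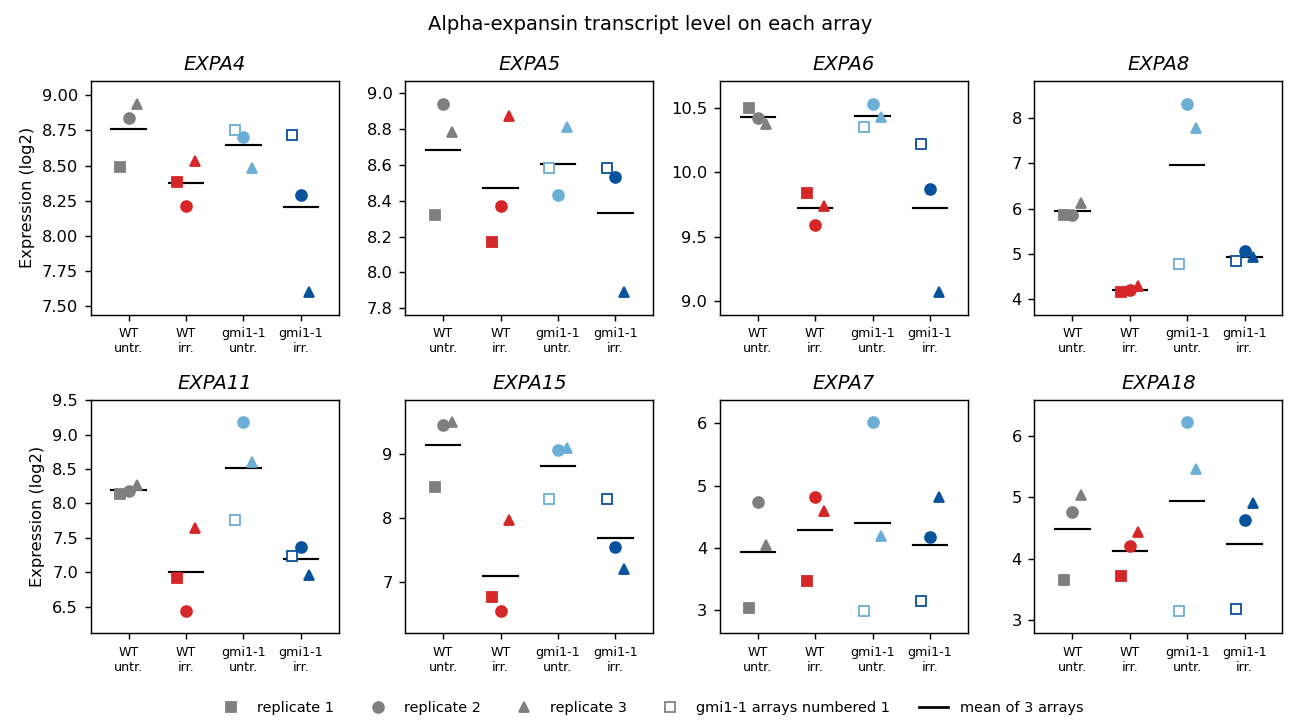
Log2 expression of the 8 alpha-expansin genes (1 panel each, each with its own vertical range) on the 12 arrays, by group; bars are the means of 3 arrays and open squares are the libraries labelled gmi1-1 replicate 1. EXPA8, EXPA11, EXPA15 and EXPA6 lie lower on the irradiated wild type arrays than on the untreated ones, and EXPA7 and EXPA18 are lowest in replicate 1 of every group.

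After irradiation EXPA15, EXPA11 and EXPA6 fell over both genotypes and none of the 8 genes rose. EXPA8 was lower as well, by the values given further on. EXPA15 fell most in wild type, by a log2 of 2.05. The root hair genes EXPA7 and EXPA18 did not pass the test, and neither did EXPA4 and EXPA5. All loci with at least 3 of the 12 arrays at a log2 value of 4 or more were fitted together with limma, 9889 in all, and rose or fell below means a Benjamini-Hochberg adjusted p under 0.05 over those loci. The 8 genes all passed that filter on level. With EXPA8, whose own arrays chose it, limma called 4 of the 8, while over both genotypes 10.4% of the tested loci were called, 6.29% falling and 4.09% rising. The median change of the 8 genes, EXPA8 included, was -0.63, beside -0.17 over all tested loci. Among the genes other than EXPA8 the middle estimate was -0.54 (EXPA18). All 8 estimates were negative, that of EXPA7 at -0.0017. In wild type alone EXPA15 was the 1 gene of the 8 called, where 1.33% of tested loci fell. The medians were -0.55, EXPA8 included, and -0.11, and without EXPA8 the middle estimate was -0.38 (EXPA4).

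EXPA15 was at 8.49, 9.45 and 9.50 in replicates 1, 2 and 3 of untreated wild type and at 6.77, 6.55 and 7.97 after irradiation. The groups did not overlap, which also held, in this direction, for 17.3% of tested loci. In wild type the mean went from 9.15 ± 0.57 (SD, n = 3) to 7.10 ± 0.76, a fall of 4.14-fold (log2 change -2.05, SE 0.43, limma adjusted p = 0.0200). Within gmi1-1 the gene was at 8.30, 9.06 and 9.09 untreated and at 8.30, 7.54 and 7.21 irradiated. Both gmi1-1 libraries numbered 1 have the same value, and the other 4 separate by treatment. The gmi1-1 difference was -1.13 (SE 0.43, limma adjusted p = 0.31) with all arrays and -1.70 (SE 0.47, limma adjusted p = 0.0561) without those libraries. With gmi1-1 irradiated replicate 3 left out too, which leaves 1 irradiated gmi1-1 array, it was -1.535. Over both genotypes EXPA15 fell by 1.59 (SE 0.30, limma adjusted p = 0.0081). The wild type call was lost without any 1 of untreated replicates 2 and 3 and irradiated replicates 1 and 2, with changes of -1.90, -1.87, -1.89 and -1.78 and limma adjusted p between 0.064 and 0.102.

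EXPA11 had a narrow range in untreated wild type, 8.14, 8.18 and 8.27, and lay at 6.92, 6.44 and 7.64 after irradiation. In gmi1-1 it was at 7.76, 9.18 and 8.60 untreated and at 7.23, 7.37 and 6.96 irradiated. All 6 irradiated arrays lay below all 6 untreated arrays, the library labelled gmi1-1 untreated replicate 1 included, as they did for EXPA6 and for 3.44% of tested loci. Over both genotypes EXPA11 fell by 1.26 (SE 0.25, limma adjusted p = 0.0103), a level 2.40-fold lower. Within a genotype the call depended on the arrays used. In wild type the change was -1.20 (SE 0.36, limma adjusted p = 0.0917), and when the gmi1-1 libraries numbered 1 were left out of the shared estimate of spread it passed (SE 0.30, limma adjusted p = 0.0397). In gmi1-1 it went from -1.33 (limma adjusted p = 0.234) to -1.73 (SE 0.37, limma adjusted p = 0.0203) without them. Without the untreated one alone it was -1.70 (limma adjusted p = 0.0202). Leaving out gmi1-1 irradiated replicate 3 besides both, which leaves 1 irradiated gmi1-1 array, gave -1.52. EXPA11 kept its call over both genotypes with any single array left out, with changes between -1.45 and -1.10, as did EXPA15, between -1.81 and -1.46.

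EXPA6 was at 10.50, 10.42 and 10.37 in untreated wild type and at 9.84, 9.59 and 9.74 in irradiated wild type, a separation several times the spread within either group. In gmi1-1 it was at 10.35, 10.53 and 10.43 untreated, nearly the wild type level, and at 10.22, 9.87 and 9.07 irradiated. The lowest of the 12 values is that of gmi1-1 irradiated replicate 3, the array with the narrow range of values. Without that array the gmi1-1 change was -0.39 in place of -0.72, and EXPA6 was still called over both genotypes, at -0.55. Over both genotypes EXPA6 fell by 0.71 (SE 0.18, limma adjusted p = 0.0307), or 1.64-fold. The change was -0.71 in wild type and -0.72 in gmi1-1 (limma adjusted p = 0.165 and 0.292). Without both gmi1-1 libraries numbered 1 it was -1.01 in gmi1-1 (limma adjusted p = 0.0555) and -0.86 over both genotypes (limma adjusted p = 0.0086). When the gmi1-1 libraries numbered 1 and gmi1-1 irradiated replicate 3 were left out, the wild type change passed (limma adjusted p = 0.0226) and the gmi1-1 change was -0.61 (limma adjusted p = 0.209). Its call over both genotypes was lost without any 1 of wild type untreated replicates 2 and 3, wild type irradiated replicates 2 and 3 and gmi1-1 untreated replicates 2 and 3, where the limma adjusted p lay between 0.0502 and 0.0817 and the change between -0.73 and -0.68.

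EXPA8 is the gene that chose the set. Untreated wild type stood at 5.86, 5.85 and 6.12 and irradiated wild type at 4.16, 4.20 and 4.29. Its wild type mean went from 5.94 ± 0.15 (SD, n = 3) to 4.22 ± 0.07, a level 3.31-fold lower. This difference of -1.73 carries no test, since the untreated and irradiated wild type arrays stand in the genotype differences that chose the gene. In gmi1-1 it was at 4.78, 8.31 and 7.77 untreated and at 4.84, 5.06 and 4.93 irradiated. The library labelled untreated replicate 1 lies at the irradiated level. The difference after irradiation in gmi1-1 was -2.01 with all arrays and -3.05 without the libraries numbered 1. It carries no test either, for the same reason, and the call of EXPA8 over both genotypes (-1.87) is no independent evidence. That call was lost without any single one of 8 arrays, the exceptions being wild type untreated replicate 1, wild type irradiated replicate 3 and the gmi1-1 libraries numbered 1.

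The genotypes differed for EXPA8 in the following way. In untreated seedlings, gmi1-1 replicates 2 and 3, at 8.31 and 7.77, lay above all 3 wild type arrays, of which the highest was 6.12. Their mean exceeded that of wild type by 2.097, whereas with the library labelled replicate 1 the difference was 1.01. After irradiation the 3 gmi1-1 arrays, at 4.84 to 5.06, lay above the 3 wild type arrays, at 4.16 to 4.29, and the means were 4.94 ± 0.11 (SD, n = 3) and 4.22 ± 0.07. The difference was 0.73 with all arrays and 0.78 without the libraries numbered 1. These values chose the gene and support nothing further. For orientation, 0.374% of tested loci had all 3 irradiated gmi1-1 arrays above all 3 irradiated wild type arrays, and 7.45% had gmi1-1 untreated replicates 2 and 3 above all 3 untreated wild type arrays.

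Among the other genes, gmi1-1 replicates 2 and 3 also lay above all untreated wild type arrays for EXPA11 and EXPA18, but wild type then includes its array numbered 1, and arrays numbered 1 are low for EXPA7 and EXPA18 in every group. The genotypes are therefore set side by side on replicates 2 and 3 of both. On these arrays the untreated means differed, gmi1-1 minus wild type, by 2.06 for EXPA8, 0.94 for EXPA18, 0.72 for EXPA7 and 0.67 for EXPA11. EXPA7 overlapped between the genotypes, since gmi1-1 untreated replicate 3 at 4.19 lay below wild type untreated replicate 2 at 4.73. EXPA15, EXPA4 and EXPA5 differed by -0.40, -0.30 and -0.24, and EXPA6 by 0.085. In irradiated seedlings on replicates 2 and 3, the 7 genes other than EXPA8 differed by between -0.43 (EXPA4) and 0.45 (EXPA18). The mean of 12 root hair markers was 7.18 and 6.82 in gmi1-1 untreated replicates 2 and 3 against 6.65 and 6.33 for the same numbers of untreated wild type. Their part in the genotype differences was not tested.

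**Figure D2:**
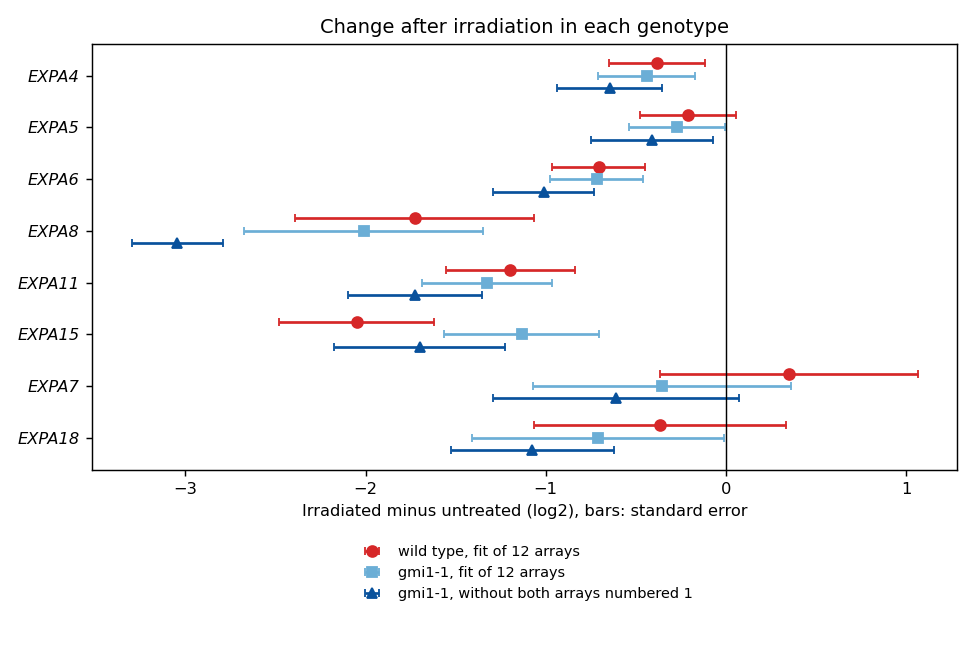
Change after irradiation (irradiated minus untreated, log2) of the 8 genes, with limma standard errors as bars, in wild type and in gmi1-1 fitted with all 12 arrays and in gmi1-1 without the libraries labelled replicate 1. All estimates but that of EXPA7 in wild type (0.35) are below 0, and the gmi1-1 estimates move further down without those libraries.

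Whether irradiation acted differently on these genes in the mutant was tested as the difference of the 2 irradiation effects, gmi1-1 minus wild type. With all 12 arrays limma called 0 of the 8 genes, and 0 had an unadjusted p under 0.05, while 0.0101% of all tested loci were called. The differences ran from -0.70 (EXPA7, SE 1.01) to 0.92 (EXPA15, SE 0.61), and for EXPA11 and EXPA6 they were -0.13 (SE 0.51) and -0.01 (SE 0.36). With standard errors of this size, equal responses are not shown. Without the libraries labelled gmi1-1 replicate 1 the 7 genes other than EXPA8 ran from -0.96 (EXPA7, SE 0.88) to 0.35 (EXPA15, SE 0.61). EXPA8 stood at -0.28 with all arrays and at -1.32 without those libraries, given with no test because its untreated gmi1-1 level chose it. The sign for EXPA4, EXPA5, EXPA6 and EXPA11 turned with quantile normalization or median centring.

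EXPA4 and EXPA5 varied little. EXPA4 was at 8.49, 8.84 and 8.94 in untreated and at 8.38, 8.21 and 8.53 in irradiated wild type. In gmi1-1 it was at 8.75, 8.70 and 8.48 untreated and at 8.72, 8.29 and 7.60 irradiated. The groups overlapped in wild type, and the change was -0.38 there (SE 0.27, limma adjusted p = 0.48) and -0.41 over both genotypes (SE 0.19, limma adjusted p = 0.183). EXPA5, known as a target of brassinosteroid signalling, was at 8.32, 8.94 and 8.78 untreated and 8.17, 8.37 and 8.87 irradiated in wild type. Its gmi1-1 values were 8.58, 8.43 and 8.81 untreated and 8.58, 8.53 and 7.89 irradiated. Its changes were -0.21 (wild type), -0.27 (gmi1-1) and -0.24 with the genotypes combined (SE 0.19, limma adjusted p = 0.417). For both genes, as for EXPA6, the lowest of the 12 values was that of gmi1-1 irradiated replicate 3. Without it and the libraries labelled gmi1-1 replicate 1, the gmi1-1 change was -0.30 for EXPA4 and -0.09 for EXPA5.

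EXPA7 and EXPA18, the root hair expansins, followed the replicate number more than the treatment or the genotype. EXPA7 was at 3.04, 2.99, 3.46 and 3.15 on the 4 arrays numbered 1 and between 4.05 and 6.02 on the other 8. EXPA18 was at 3.65, 3.15, 3.72 and 3.17 on the arrays numbered 1 and between 4.20 and 6.22 elsewhere. For both genes, then, all 4 arrays numbered 1 lay below all others, as they did for 3.51% of tested loci and for none of the other 6 expansins. The means differed by -1.51 for EXPA7 and -1.53 for EXPA18, arrays numbered 1 minus the rest, and by between -0.91 (EXPA8) and 0.23 (EXPA6) for the other 6. The arrays numbered 1 lie under the log2 value of 4 used as the floor for testing, where this kind of normalization compresses values, so the size of the difference is approximate. Both genes reached 4 only on the other 8 arrays, and so entered the tested loci through the arrays where they are high. The split is given as a description, and the 3.51% comes from loci that passed the same filter. What the replicate number stands for is not given in the labels.

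Part of the root hair markers showed the same split. The mean of 12 tested root hair markers was 4.52 to 4.88 on the 4 arrays numbered 1 and 5.44 to 7.18 on the other 8. Of the 12, 6 were lower on all arrays numbered 1 than on all others: PRP3 and RHS19, AGP3, XTH14, MRH6 and RHS12. The rest of the 12 overlapped. Of all tested loci, 3.51% were lower in this way. AGP3, MRH6 and RHS12 reached a log2 value of 4 only outside the arrays numbered 1. The split was not limited to root hair markers. WER, a marker of the non-hair epidermis, was at 4.58 or less on the arrays numbered 1 and at 4.64 or more elsewhere, while CPC overlapped. Transcription factors at the head of root hair growth, RHD6 and RSL4, stayed at or under 3.67 on every array and were not tested. RSL4 was at 2.64 or less on the arrays numbered 1 and at 2.79 or more elsewhere, near the floor, and RHD6 overlapped. The means of the 4 tested root markers overlapped, at 7.03 to 7.67 on the arrays numbered 1 and 6.66 to 7.998 on the others. Within a group, though, replicate 1 had the lowest root marker mean, except in irradiated gmi1-1. There replicate 3, the array with the narrow range of values, was lowest at 6.66, against 7.32 in replicate 1. The green tissue markers were at 13.78 to 14.02 and 13.31 to 13.83, and replicate 1 was highest in every group. The part of root hair number in the EXPA7 and EXPA18 values was not tested.

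**Figure D3:**
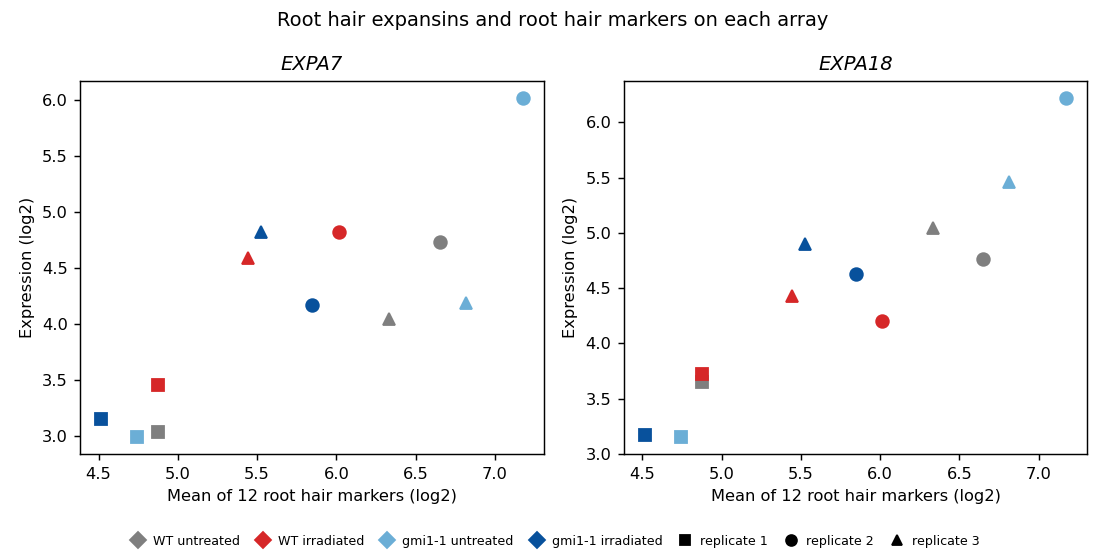
Log2 expression of EXPA7 (left) and EXPA18 (right) against the mean log2 expression of 12 root hair markers on the 12 arrays, with groups as colours and replicate numbers as symbols. The 4 squares of replicate 1 lie together at the lower left of both panels, at marker means of 4.52 to 4.88, and gmi1-1 untreated replicate 2 is highest in both.

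Irradiation itself did not give a call for either gene with all 12 arrays. EXPA18 was at 3.65, 4.76 and 5.04 in untreated wild type and at 3.72, 4.20 and 4.43 after irradiation, and in gmi1-1 at 3.15, 6.22 and 5.46 against 3.17, 4.63 and 4.90. Irradiated values lay below untreated ones within replicates 2 and 3 of each genotype, and within replicate 1 they were nearly equal. Its change over both genotypes was -0.54 (SE 0.50, limma adjusted p = 0.489), and without the 4 arrays numbered 1 EXPA18 fell by 0.83 (limma adjusted p = 0.0295), where 14.2% of tested loci fell. EXPA7 was at 3.04, 4.73 and 4.05 in untreated and at 3.46, 4.82 and 4.59 in irradiated wild type. In gmi1-1 it was at 2.99, 6.02 and 4.19 untreated and 3.15, 4.17 and 4.82 irradiated, so that replicates 2 and 3 differed in opposite directions. Its changes were 0.35 in wild type (SE 0.72, limma adjusted p = 0.827) and -0.35 in gmi1-1 (SE 0.72, limma adjusted p = 0.824). The 2 root hair genes thus shared the replicate pattern, and with all 12 arrays neither was called for the treatment. The call of EXPA18 came only from the fit without the 4 arrays numbered 1.

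With both gmi1-1 libraries numbered 1 left out, the calls among the 8 genes were EXPA15, EXPA11 and, by arrays that chose it, EXPA8 in wild type, where 7.34% of tested loci were called and 3.21% fell. In gmi1-1 they were EXPA11 and, with the same limit, EXPA8, where 7.58% were called and 5.13% fell, against 0 of 8 with all arrays (0 of 9889 loci called by limma, and 4 of the 8 genes at an unadjusted p under 0.05). Without the untreated one alone limma called the same 2 genes in gmi1-1, and 327 of 9889 tested loci, against 750 without both. EXPA4 was then at -0.39 in gmi1-1, and at -0.645 without both. Irradiated replicate 1 held the highest irradiated gmi1-1 value of EXPA4, EXPA5, EXPA6 and EXPA15, so their gmi1-1 falls are larger without it. Over both genotypes the calls without both libraries were the same 4 genes as with all arrays, and 19.1% of tested loci were called and 13.6% fell. Replicates 2 and 3 of gmi1-1 were lower irradiated than untreated, with no overlap, for EXPA4, EXPA6, EXPA8, EXPA11, EXPA15 and EXPA18, but so were 46.8% of tested loci. On the 10 arrays without those libraries the 5 irradiated ones lay below the 5 untreated ones for EXPA6, EXPA8, EXPA11 and EXPA15, as for 10.6% of tested loci. The median changes of the 8 genes, EXPA8 included, on the same 10 arrays were -0.55 in wild type and -1.04 in gmi1-1, beside -0.11 and -0.35 over all tested loci. Leaving out all 4 arrays numbered 1 instead gave 2 wild type calls, 3 gmi1-1 calls and 5 over both genotypes. Each count includes EXPA8, by arrays that chose it. The other genes were EXPA15 in wild type, EXPA11 and EXPA15 in gmi1-1, and EXPA6, EXPA11, EXPA15 and EXPA18 over both. Of tested loci, 7.19%, 10.4% and 20.1% were called, 3.44%, 7.48% and 14.2% falling. The medians of the 8 genes, EXPA8 included, were -0.66 in wild type and -1.04 in gmi1-1, beside -0.09 and -0.35 over all tested loci.

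Other wall genes gave a mixed picture. Of 8 further expansins and expansin-like genes tested, EXLB1, an expansin-like B gene, fell in wild type by 1.73 (SE 0.38, limma adjusted p = 0.0239) and none rose, where 4.54% of all tested loci changed. Without the libraries labelled gmi1-1 replicate 1, EXPA3 fell too, by 1.65 in wild type (limma adjusted p = 0.0246) and by 1.89 in gmi1-1 (limma adjusted p = 0.035). With all arrays none of the 8 passed in gmi1-1, as no tested locus did there. EXPA3 was at -1.33 and EXPA20 at -0.58 in gmi1-1, and the median of the 8 was -0.24 in wild type and -0.40 in gmi1-1. Over both genotypes 2 of the 8 fell, EXPA3 by 1.49 (limma adjusted p = 0.0217) and EXLB1 by 1.06 (limma adjusted p = 0.0291), where 6.29% of tested loci fell.

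The xyloglucan endotransglucosylases (XTH), enzymes that cut and rejoin the wall's xyloglucan chains, moved both ways. Of 22 tested, 3 rose and 1 fell in wild type, where 3.21% of all tested loci rose and 1.33% fell. Those that rose were XTH22, known as the touch-induced TCH4, by 2.06 (limma adjusted p = 0.0088), XTH28 by 1.42 (limma adjusted p = 0.0101) and XTH23 by 2.02 (limma adjusted p = 0.0120). The gene that fell was XTH20, by 1.53, named after its value was seen. In gmi1-1 none passed with all arrays, as no tested locus did there. XTH20 was at -1.26 and XTH22 at 1.16 in gmi1-1, and 9 had an unadjusted p under 0.05. Without the libraries labelled gmi1-1 replicate 1, 3 rose and 6 fell in gmi1-1, among them XTH22 at 1.60, XTH13 at -4.10 and XTH20 at -1.70. In wild type 3 then rose and 4 fell. Of all tested loci 7.58% were called in gmi1-1 in that fit and 7.34% in wild type. Over both genotypes and all arrays 3 rose and 4 fell, among them XTH22 at 1.61, XTH20 at -1.39 and XTH28 at 1.07. Of all tested loci 4.09% rose and 6.29% fell there.

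Genes that act beside expansins gave no limma call within either genotype with all 12 arrays. In gmi1-1 that held for all 9889 tested loci, and in wild type 4.54% of them were called. The lack of calls in lists this short therefore says little about these genes. Of 5 proton pump genes none passed in either genotype, and 0 had an unadjusted p under 0.05. AHA5 was at 0.80 and AHA2 at -0.15 in wild type, and AHA2 at -0.26 and AHA3 at -0.44 in gmi1-1. Of 11 genes of cellulose synthesis none passed and 0 had an unadjusted p under 0.05, with CESA2 at -0.25 and CSI1 at 0.23 in wild type and CESA2 at -0.27 and CESA1 at -0.30 in gmi1-1. Of 6 genes of pectin modification none passed within a genotype with all arrays (1 at an unadjusted p under 0.05 in each genotype). The polygalacturonase gene PGX3 (AT1G48100) was at -1.26 and -1.18 in wild type and gmi1-1, and PME5, a pectin methylesterase, at -2.14 and -2.16. Over both genotypes PGX3 fell by 1.22 (limma adjusted p = 0.0496), the 1 call among the 6, where 10.4% of tested loci were called. Without the libraries labelled gmi1-1 replicate 1, PGX3 fell by 2.03 in gmi1-1 (limma adjusted p = 0.0265).

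Of 7 genes of brassinosteroid synthesis and growth none passed within a genotype with all arrays (2 at an unadjusted p under 0.05 in wild type and 1 in gmi1-1). With all arrays no tested locus passed in gmi1-1, and 4.54% did in wild type, a limit that holds for each list below. The examples are ROT3, of brassinosteroid synthesis, at -0.83 and -0.53 and BAS1, which inactivates the hormone, at -1.14 and -1.33. Over both genotypes BAS1 fell by 1.24 (limma adjusted p = 0.0436), the 1 call among the 7, where 10.4% of tested loci were called. BAS1 fell by 2.08 in gmi1-1 without the libraries labelled replicate 1 (limma adjusted p = 0.0208). None of 12 root hair markers passed within a genotype with all arrays (1 at an unadjusted p under 0.05 in wild type and 4 in gmi1-1), where RHS18 was at -2.67 and -2.70 and COBL9 at -0.77 and -1.15. Over both genotypes RHS18 fell by 2.69 (limma adjusted p = 0.0449), the 1 call among the 12, near the 10.4% of tested loci called. When both gmi1-1 libraries numbered 1 were left out, 3 of the 12 fell in gmi1-1, RHS18 at -3.85, RHS12 at -1.83 and PRP3 at -2.55, where 5.13% of tested loci fell. The markers did not all move down. Over both genotypes in that fit 5 fell and 1 rose, LRL3 by 0.79 (limma adjusted p = 0.0131), where 19.1% of tested loci were called. The median of the 12 was then -1.27 in gmi1-1, beside a change of -1.08 for EXPA18 and -0.61 for EXPA7. None of the tissue markers of green tissue (6), root (4) and non-hair epidermis (2) passed with all arrays, and 0 had an unadjusted p under 0.05. LHCB6 and LHCB3 were at -0.29 and -0.23 in wild type and LHCB6 and PSAD1 at -0.32 and -0.26 in gmi1-1. PYK10 and SHR were at -0.39 and -0.65 in wild type, and SCR and TIP2;3 at -0.59 and -0.81 in gmi1-1. WER and CPC were at 0.24 and -0.06 in wild type and at -0.16 and -0.28 in gmi1-1.

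Loci outside the family whose values ran most like those of EXPA8 are given as a description, by Pearson's r over arrays that share group, treatment and replicate. Over the 12 arrays they were AT5G19340 (r = 0.935), AT1G11780 (0.923), NHL2 (AT3G11650, 0.917), the auxin-responsive SAUR46 (AT2G37030, 0.916) and the homeobox gene HB52 (AT5G53980, 0.912). Over the 10 arrays without the libraries labelled gmi1-1 replicate 1 they were AT3G11690 (0.959), AT5G19340 (0.936), AT1G11780 (0.929), AT4G15690 (0.927) and AT1G13670 (0.918). AT5G19340 and AT1G11780 stand in both sets. Of the named genes, SAUR46 had group means of 4.34 and 2.25 in untreated and irradiated wild type and 4.51 and 2.60 in gmi1-1.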

How the data were processed

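Expression was deposited as log2 values for each probe set on each array, normalized by the authors with GCRMA, per the submitters' processing notes; the GCRMA version and array design were not given in the sources used here. GCRMA compresses values near background. Biotin labelling followed the one-cycle method, per the labels' protocols. No file names the log base, and the values' range fits log2. Array medians ran from 4.23 to 4.81, and the number of arrays limits the precision.

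Groups and replicate numbers came from the sample titles. Loci with at least 3 of 12 arrays at a log2 value of 4 or more were kept, 9889 of 16947, and 2 control probe sets were left out. Group means were fitted with limma 3.58.1 (lmFit, eBayes) in R 4.3.3, with two-sided moderated p-values, Benjamini-Hochberg adjusted over all 9889 loci per contrast. The fit was tested on simulated data. Untreated and irradiated arrays of 1 number were not taken as pairs, since their deviations did not all correlate over 0.1. Across genotypes they did (0.54 to 0.67 untreated, 0.17 to 0.41 irradiated), so genotypes are also compared on shared numbers; those differences carry no test.

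RefSeq (TAIR10.1) served for names only, with 16851 loci matched. The members, the 10 gene lists (82 of 133 loci tested) and the alternatives were chosen with earlier results of these data known. All 8 members are named in every contrast. From each list up to 3 called genes with the smallest p were named, or 2 where none passed, and the 5 loci most like EXPA8. The alternatives were other normalizations, filters, array weights, a replicate block and left-out arrays.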

Additional observations from a re-analysis of the deposited data

How the results depend on the processing

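Over 24 alternatives, the count of the 8 expansins called in wild type was 1 with all arrays and 4 with array weights, 2 with only the wild type arrays fitted, 3 without the libraries labelled gmi1-1 replicate 1, 4 without these and gmi1-1 irradiated replicate 3, and 2 without the 4 arrays numbered 1. In gmi1-1 it was 0 with all arrays, 2 with array weights, 2 without the libraries labelled gmi1-1 replicate 1 and 3 without the 4 arrays numbered 1. Each of these counts, other than those with all arrays, includes EXPA8, by arrays that chose it. Of all 9889 tested loci, 591 were called with only the wild type arrays. Without the 4 arrays numbered 1, 711 were called in wild type and 1027 in gmi1-1. Further counts over all loci close this section. Leaving out single arrays gave 0 to 3 in wild type, 0 to 2 in gmi1-1, 2 to 4 over both genotypes (4 with all) and 0 for the difference between genotypes. Over all tested loci the ranges were 111 to 591, 0 to 327, 474 to 1528 and 1. The highest count of expansins in each of the first 3 ranges includes EXPA8. With the replicate number as a block the counts were 1, 0, 4 and 0, and no call of an expansin changed. The deviations of same-numbered arrays correlated by 0.07 to 0.53 between treatments in wild type, 0.05 to 0.14 between treatments in gmi1-1, 0.54 to 0.67 between untreated genotypes and 0.17 to 0.41 between irradiated ones.

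Signs that turned, none of them of a called value, were those of the difference between genotypes for EXPA4, EXPA5, EXPA6 and EXPA11 with quantile normalization (0.11, 0.088, 0.055 and 0.13) and median centring (0.17, 0.17, 0.22 and 0.10). For EXPA4, EXPA5 and EXPA6 they also turned with array weights (0.22, 0.12 and 0.094) and without the gmi1-1 arrays numbered 1 and irradiated replicate 3 (0.083, 0.12 and 0.097). EXPA7 was at -0.13 in wild type with array weights, and over both genotypes at 0.080 with quantile normalization and 0.06 with median centring. In wild type AHA2 was at 0.072 with quantile normalization. With array weights CPC was at 0.16, LHCB3 at 0.078, LHCB6 at 0.012 and WER at -0.12, and CPC was at 0.24 without the 4 arrays numbered 1. In gmi1-1 WER was at 0.063 with quantile normalization, 0.017 with median centring and 0.16 in the 3 fits without the gmi1-1 arrays numbered 1. The causes were not tested.

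With single arrays left out, the difference between genotypes ran from -0.32 to 0.25 for EXPA4, -0.21 to 0.16 for EXPA5, -0.26 to 0.32 for EXPA6, -1.41 to 0.11 for EXPA7, -1.37 to 0.40 for EXPA8, -0.51 to 0.20 for EXPA11 and -1.24 to 0.30 for EXPA18. The change of EXPA7 ran from -0.10 to 0.77 in wild type, -1.06 to 0.46 in gmi1-1 and -0.35 to 0.40 over both. That of CPC ran from -0.23 to 0.13 in wild type and -0.49 to 0.013 in gmi1-1, that of WER from -0.20 to 0.70 and -0.35 to 0.23, and that of LHCB3 from -0.44 to 0.038 in wild type.

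Over all loci, 449 were called in wild type (1407 with array weights, 297 with a filter at log2 6, 726 without the gmi1-1 arrays numbered 1), 0 in gmi1-1 (417 and 750 for the first and last of these) and 1026 over both genotypes (2594 and 1889). The wild type split of 317 higher and 132 lower was 315 and 238 with median centring, and over both genotypes 404 and 622 became 547 and 493 with quantile normalization.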
